A study of Mus musculus with 28 samples.

Results

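The gastric corpus of villin-PPARD mice was compared between 55 and 10 weeks of age across all genes. The comparison uses 10 of the 28 libraries of the study: 5 transgenic mice at 10 weeks and 5 at 55 weeks, 1 library per mouse. They were chosen by the genotype and age in the sample labels, with no measured value involved. The other libraries come from transgenic mice at 25 weeks and from wild-type littermates at 10, 25 and 55 weeks. Both transgenic groups carry the same transgene, in which the villin promoter, best known for activity in intestinal epithelium, drives PPARD, and the labels name no other agent or allele. The labels give neither the strain nor the sex of the mice. Epithelial cells were scraped by hand from the corpus, so each library is a mixture of epithelial cell types with whatever other cells the scraping carried along.

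PPARD encodes peroxisome proliferator-activated receptor delta, a nuclear receptor that fatty acids activate and that switches on genes of lipid uptake, storage and oxidation. The corpus is the acid-secreting part of the stomach. Its glands hold pit cells, which make the surface mucus, mucous neck cells, parietal cells, which secrete acid, chief cells, which store digestive zymogens, and scattered endocrine cells. Loss of parietal and chief cells with gain of mucous cells that carry neck-cell markers is known as spasmolytic polypeptide-expressing metaplasia (SPEM).

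Total counts ranged from 17237529 to 23503643 in the 10-week and from 18495690 to 30891108 in the 55-week transgenic libraries. The column names of the count table also carry a library group: 10-week replicates 1 to 3 stand in the first, and 10-week replicates 4 and 5 stand in the second with all 5 55-week libraries. Age and library group are therefore partly confounded, and values within the second group (2 against 5 libraries) are given beside the named genes whose call was lost there. For gene lists, counts within the second group or with scaling by library size alone are given where a count moved by over 1.5 times and by 2 or more genes. The 10 most abundant genes took 27.7 ± 1.96% of counts at 10 weeks and 14.6 ± 0.617% at 55 weeks (SD, n = 5), a two-sided exact permutation test giving p = 0.00794, the smallest that 5 against 5 libraries allow, and 0.0317 after adjustment over 4 such measures. Genes with at least 10 counts numbered 13730 ± 465 at 10 weeks and 15005 ± 729 at 55 weeks (exact permutation p = 0.0238, adjusted 0.0476). This number was not adjusted for total counts. The 55-week library with the fewest counts, replicate 2, had 14080 such genes, within the 10-week range of 13143 to 14268. Mitochondrially encoded genes took 3.04 ± 1.25% and 3.24 ± 1.30% of counts (exact permutation p = 0.746). In a principal component analysis of all 28 libraries the first component held 56.9% of the variance, and the 5 55-week transgenic libraries scored from 89.7 to 103 on it while the other 23 scored from −43.7 to 28.5. The epithelial markers Cdh1 (E-cadherin; 2331 CPM at 10 and 2150 CPM at 55 weeks, counts per 1000000 reads, scaled with TMM factors) and Krt8 (a keratin of simple epithelia; 5909 CPM at 10 and 4658 CPM at 55 weeks) stayed abundant at both ages, and neither was called.

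Of 15812 tested genes, 8180 (51.7%) differed between the ages at a Benjamini-Hochberg adjusted p under 0.05 in edgeR's quasi-likelihood test. Of these, 4302 were higher at 55 weeks (27.2% of tested genes) and 3878 lower (24.5%), and the median log2 difference over all tested genes was 0.02. The 5 and 5 libraries did not overlap in 6463 genes (40.9%). A difference of at least 4-fold was reached by 943 of the higher and 652 of the lower genes. The counts of each gene list below stand against the shares of all tested genes, 27.2% higher and 24.5% lower. Scaling by library size alone shifted the median of all genes upward by 0.42 on the log2 scale and gave 8800 genes higher and 1792 lower, so the balance of directions rests on the scaling. Within the second library group 6772 of 16193 tested genes (41.8%) were called. Of the 8160 genes called in the full comparison and tested there, 8158 kept their direction. The libraries of the second group are all part of the full comparison, and these genes were chosen by their call in it. Agreement in direction was therefore largely built in and is no separate check on the library group.

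The same ages in wild-type littermates, with the same split of library groups, gave 2007 called genes (12.7%), 1017 higher (6.43%) and 990 lower (6.26%). A 4-fold difference was reached by 112 higher and 7 lower wild-type genes. Within the second library group the wild-type count was 243. In the 10-week wild-type group, replicates 2 and 3 differed less than any other pair (chi-square per degree of freedom 3.95, against 16.6 to 77.5), and without one or the other the count was 1493 or 1402. It was 1299 without wild-type 10-week replicate 1 and 1203 without 55-week replicate 2. The change with age itself differed between the genotypes in 5748 genes (36.4%), more positive in the transgenic mice in 2905 (18.4%) and more negative in 2843 (18.0%). With library size alone 5937 were more positive and 1519 more negative, so this balance rests on the scaling too. Both genotypes called 1342 genes, 16.4% of the transgenic and 66.9% of the wild-type calls, and 1048 of these moved in the same direction.

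**Figure D1:**
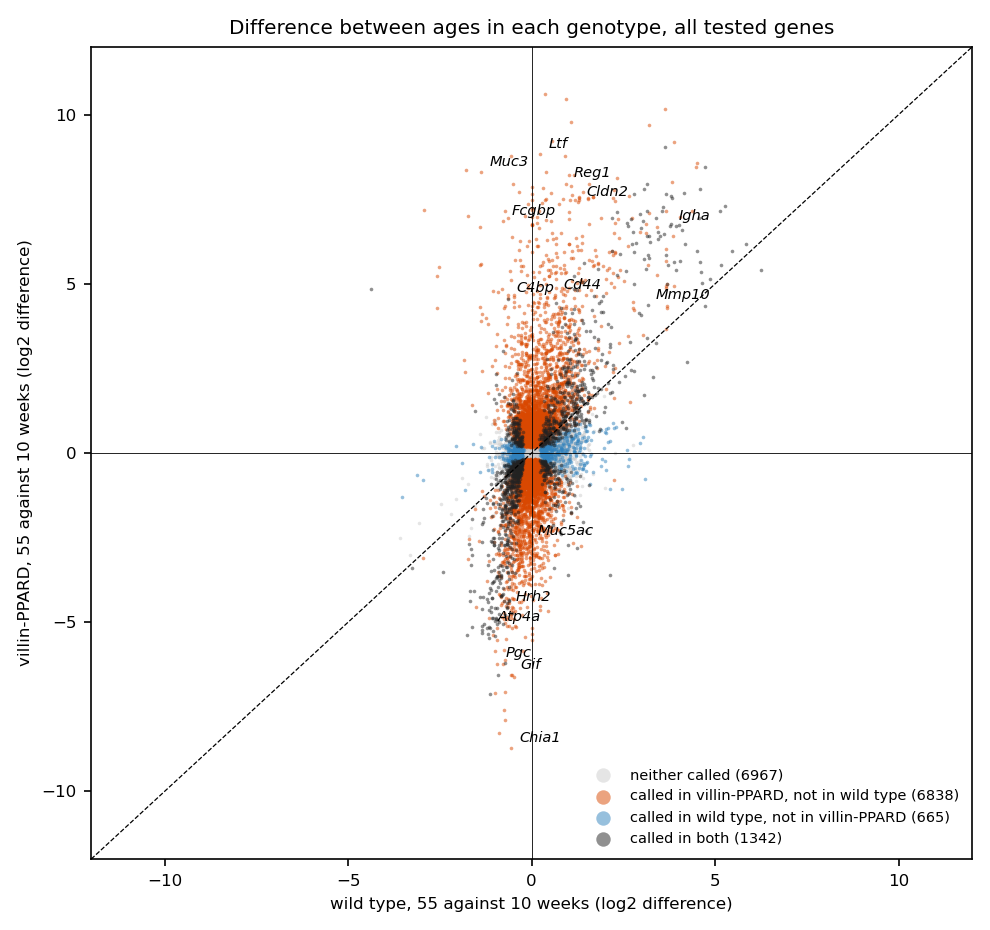
Log2 difference between 55 and 10 weeks in wild-type (horizontal axis) and villin-PPARD mice (vertical axis) for the 15812 tested genes, coloured by which comparison called them at an adjusted p under 0.05; the dashed line marks equal differences. The points spread further along the vertical axis, and the 1342 genes called in both genotypes include immunoglobulin genes such as Igha at the upper right.

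Ppard (mouse gene ENSMUSG00000002250, chromosome 17, 28232700 to 28301474, GRCm38, GENCODE annotation) was examined first, since the transgene expresses PPARD. Its level was 125, 112, 101, 108 and 102 CPM in the 10-week libraries and 84.7, 102, 93.8, 98.9 and 87.2 CPM at 55 weeks, so the groups overlapped at about 102 CPM. The log2 difference was -0.23 ± 0.09 (SE; edgeR adjusted p = 0.034). The call was lost without any 1 of 5 libraries (10-week replicates 1 and 2, 55-week replicates 1, 3 and 5), with adjusted p up to 0.116, and within the second library group (-0.18, adjusted p = 0.189); with library size alone the difference was 0.19. The age change was more negative than in wild type by 0.33 on the log2 scale, a called difference. Library size alone shifted the median of this difference over all tested genes upward by 0.36, an amount of similar size. Counts per gene do not separate the transgene from the gene on its own chromosome. Whether transgene reads were counted at this gene was not tested, so these levels are no check of the transgene. Vil1, which encodes the villin of the brush border and whose promoter drives the transgene, rose from 142 ± 24.9 to 431 ± 35.2 CPM (SD, n = 5), a log2 difference of 1.60 ± 0.19 (edgeR adjusted p = 2.85e-08).

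Genes of the chief and parietal lineages fell steeply. All cell types of the gland are measured in bulk here, so fewer cells of a type and less RNA per cell cannot be told apart. Of 12 tested chief cell genes 11 fell and none rose (median log2 -3.69), against 24.5% of all tested genes lower; Amy2b was not called. Pgc, the precursor of pepsin C (ENSMUSG00000023987, chromosome 17, 47726842 to 47734482), stood at 48209, 59864, 52067, 44681 and 49952 CPM in the 10-week libraries and at 1213, 996, 385, 271 and 552 CPM at 55 weeks. Every 55-week library was at least 30 times below the lowest 10-week library, and replicates 3 and 4 were the lowest. The log2 difference of Pgc was -6.22 ± 0.44 (SE; 74.6-fold lower; edgeR adjusted p = 1.66e-12). Gif, intrinsic factor for vitamin B12 uptake (chromosome 19, 11747554 to 11763447), went from 1667 ± 238 to 17.6 ± 11.8 CPM (SD, n = 5), with single libraries of 1319, 1865, 1794, 1521 and 1836 CPM and then 23.2, 31.7, 4.43, 6.33 and 22.3 CPM. Both genes kept high levels in old wild-type stomachs, 18482 to 68662 CPM for Pgc and 965 to 2136 CPM for Gif, and their wild-type differences of -0.93 ± 0.35 and -0.52 ± 0.36 were not called.

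Of the 15 named genes with the largest falls 8 are digestive enzymes or secretory products of zymogenic cells, Pgc and Gif among them. Chia1, acidic mammalian chitinase, fell from 7993 ± 1321 to 18.8 ± 11.4 CPM, 425-fold. Pla2g1b, a secreted phospholipase A2, fell from 7388 to 31.3 CPM, and Clps, the lipase cofactor colipase, from 8497 to 63.4 CPM. The trypsinogen Try10 fell by 7.58, the zymogen granule protein Sycn by 5.46 and the pancreatic-type disulfide isomerase Pdia2 by 5.38 on the log2 scale (Pdia2 was at -6.98 without 55-week replicate 1). Try10 belongs to a family of near-identical trypsinogens, so its share of reads is uncertain. Receptors and transporters fell alongside: Cckar, which senses cholecystokinin, fell from 35.5 to 0.479 CPM, the prolactin receptor Prlr from 8.16 to 0.199 CPM, the membrane oestrogen receptor Gper1 from 13.3 to 0.093 CPM and the glutamine transporter Slc38a3 from 12.1 to 0.269 CPM. The remaining 3 were Sostdc1, an antagonist of BMP and Wnt signalling, and the neuronal membrane proteins Gpm6a and Nrn1, with log2 differences of -5.86, -5.36 and -5.34. Pnliprp1, a lipase relative of chief cells outside these 15, fell by 4.76. No 10-week library of the 15 genes overlapped a 55-week library, as the naming rule requires.

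Most genes of the acid-secreting parietal cell fell. Of 22 tested parietal genes 19 fell and none rose (3 rose and 19 fell with library size alone; median log2 -3.34; -0.77 in wild type, where 17 fell). Atp4a, the catalytic subunit of the proton pump (ENSMUSG00000005553, chromosome 7, 30712209 to 30725534), measured 6562, 6982, 6301, 5804 and 7297 CPM at 10 weeks and 279.8, 278, 102, 101 and 162 CPM at 55 weeks. The groups did not overlap, with 55-week replicates 1 and 2 above the other 3, and the log2 difference was -5.16 ± 0.29 (edgeR adjusted p = 1.01e-14). Wild-type Atp4a also fell with age, by 1.14, and the difference between the genotypes was -4.02 ± 0.35 (adjusted p = 6.49e-10). The pump's beta subunit Atp4b fell from 2717 ± 225 to 85.7 ± 50.2 CPM (SD, n = 5). Hrh2, the histamine receptor that triggers acid secretion, fell from 38.7 ± 1.87 to 1.65 ± 0.564 CPM, and the potassium channels Kcnj15 and Kcnj16 by 2.86 and 4.38 on the log2 scale. The 3 parietal genes not called were Kcnq1, the apical potassium channel that serves the pump (159 CPM at 10 and 158 CPM at 55 weeks, log2 -0.00 ± 0.15), the sodium-proton exchanger Slc9a4 (353 CPM at 10 and 346 CPM at 55 weeks, -0.03 ± 0.11) and the muscarinic receptor Chrm3 (14.9 CPM at 10 and 15.6 CPM at 55 weeks, 0.07 ± 0.17). Kcnq1 and Chrm3 fell in wild type by 0.75 and 0.65, and both differences between genotypes were called (adjusted p = 0.00601 and 0.0186).

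Pit cell genes fell less steeply. Of 16 tested genes 12 fell and 1 rose (median log2 -1.33; 0.01 in wild type), and Muc1, Vsig2 and Cldn18 were not called. Muc5ac, the gel-forming mucin of the gastric surface, measured 29912, 23471, 23063, 23698 and 26451 CPM at 10 weeks and 1573, 7160, 4494, 3272 and 4484 CPM at 55 weeks. All 55-week libraries were below all 10-week libraries, with replicate 1 the lowest and replicate 2 the highest, and the log2 difference was -2.59 ± 0.26. Gkn1, a gastrokine of pit cells, fell from 40126 ± 2920 to 11162 ± 4139 CPM. Psca, a surface antigen, fell by 2.29, the calpain Capn9 by 2.61 and the mucin-like Dpcr1 by 2.42 on the log2 scale. Krt20, a keratin of mature gut surface cells, was the exception, at 451, 313, 299, 581 and 449.8 CPM at 10 weeks and 890.5, 1693, 1748, 1102 and 1467 CPM at 55 weeks (log2 1.72 ± 0.29, adjusted p = 1.28e-05).

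Most endocrine cell genes fell. Of 18 tested endocrine cell genes 15 fell and 2 rose (median log2 -3.01; -0.27 in wild type), with Tph1 not called. Sst, somatostatin of D cells, dropped from 54.6, 72.4, 76.2, 58.8 and 58.6 CPM to 2.11, 2.82, 1.69, 1.04 and 1.49 CPM, a log2 difference of -5.14 ± 0.29. Ghrl, ghrelin, fell from 333 ± 80.1 to 38.4 ± 22.1 CPM (SD, n = 5). Hdc, the histamine-forming enzyme of enterochromaffin-like cells, fell by 2.34, the vesicle protein Syp by 3.30 and the granin Scg2 by 4.41 on the log2 scale. The 2 that rose were the vesicular monoamine transporter Slc18a1 (0.48 CPM at 10 and 1.43 CPM at 55 weeks, log2 1.58 ± 0.29) and the decarboxylase Ddc (8.38 CPM at 10 and 11.5 CPM at 55 weeks, 0.45 ± 0.15); Ddc was not called within the second library group (0.36, adjusted p = 0.199).

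Genes linked with mucous neck cells and SPEM split. Of 18 tested genes 14 rose and 4 fell (median log2 1.55), against 1 higher and none lower in wild type. The 4 that fell were Muc6, Tff2, Aqp5 and Cxcl17, while Gkn3, another neck cell product, was among the 14. Muc6, the gland mucin, went from 1049, 1061, 1110, 951 and 1660 CPM to 419.9, 250.2, 79.7, 174 and 182 CPM (log2 -2.40 ± 0.32, adjusted p = 5.85e-07). The spasmolytic polypeptide Tff2 went from 3171, 2849, 2708, 2844 and 2755 CPM to 2029, 2356, 2641, 1552 and 1368 CPM. Its log2 difference of -0.53 ± 0.19 (adjusted p = 0.0242) was not called without 10-week replicate 1 or 55-week replicate 4 or 5 (adjusted p up to 0.0918), nor within the second library group (adjusted p = 0.144). Aqp5 and Cxcl17 fell by 1.83 and 0.94. On the other side Cd44, the hyaluronan receptor used as a metaplasia marker (ENSMUSG00000005087, chromosome 2, 102811141 to 102901665), measured 6.49, 8.1, 10.6, 9.75 and 10.2 CPM at 10 weeks and 242, 203, 188, 229 and 289.8 CPM at 55 weeks, a log2 difference of 4.66 ± 0.24 (edgeR adjusted p = 9.06e-15). The groups of Cd44 lay far apart, and old wild-type libraries held 8.92 to 10.8 CPM. Cftr, the chloride channel, rose from 1.24 ± 0.337 to 88.3 ± 8.18 CPM, Olfm4, a crypt stem cell product, from 2.21 ± 0.174 to 61.5 ± 27.9 CPM, and the endotoxin co-receptor Cd14 from 3.94 ± 0.53 to 104 ± 24.7 CPM (SD, n = 5). Replicate 3 was the lowest 55-week library for Olfm4 (69, 53.6, 18.9, 71.9 and 94 CPM).

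**Figure D2:**
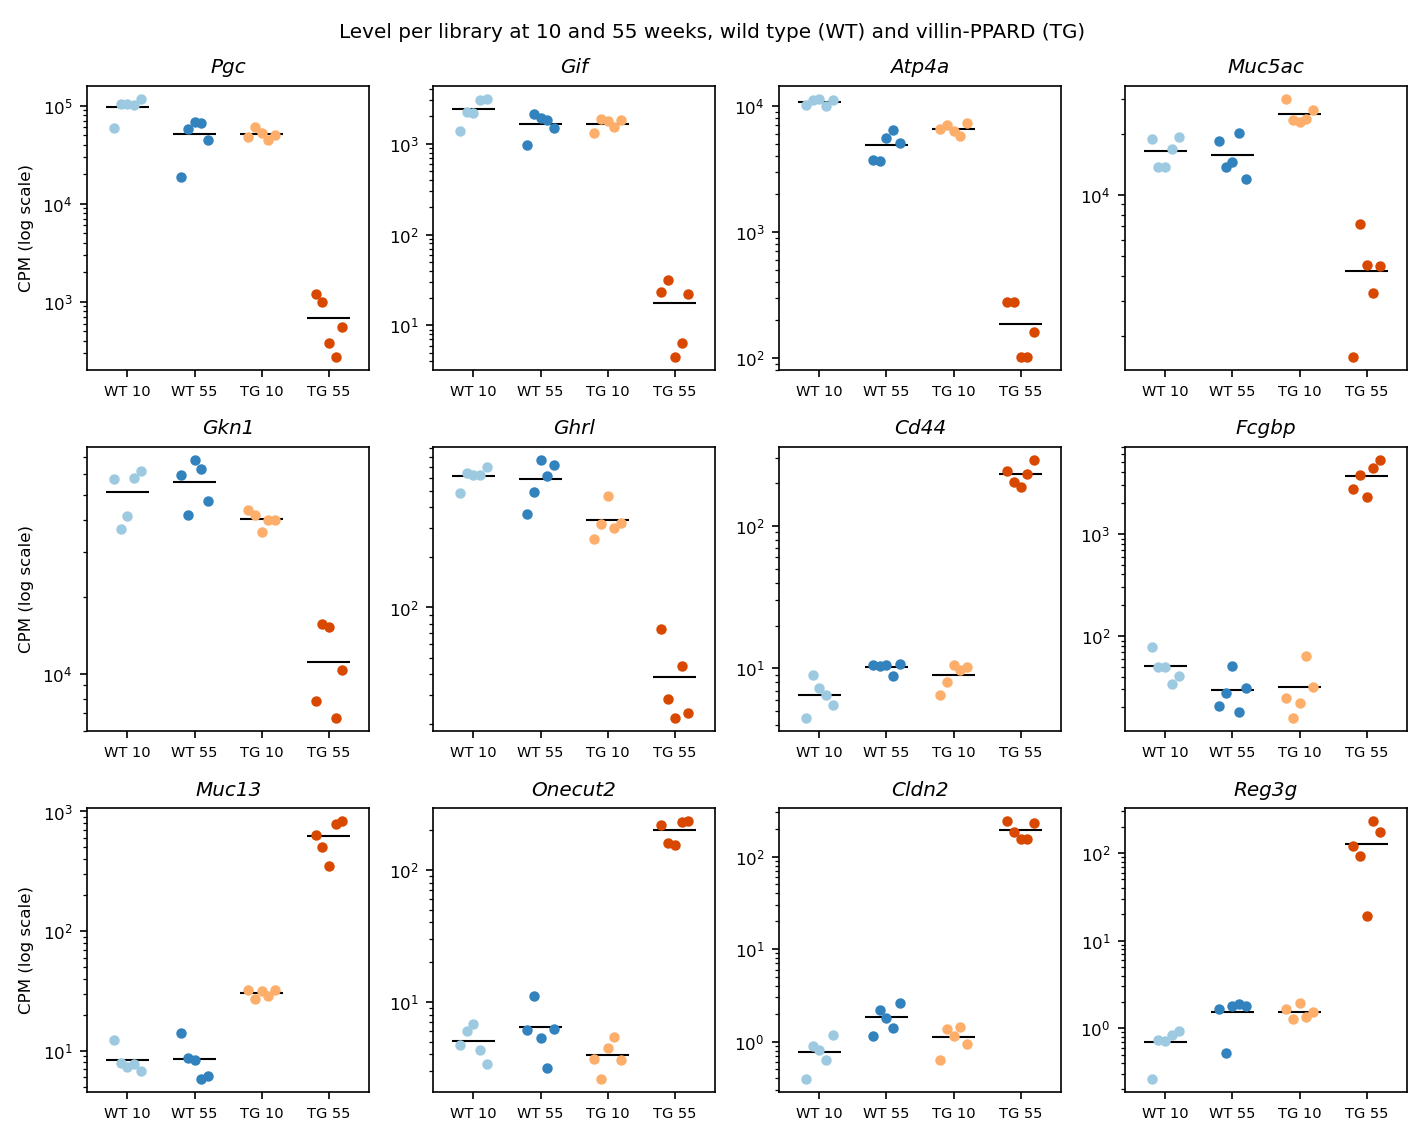
CPM on a log scale of 12 genes in each library of wild-type (WT) and villin-PPARD (TG) mice at 10 and 55 weeks; points are single mice, 5 per group, and lines are group means. The 55-week TG libraries lie below every other library shown for Pgc, Gif, Atp4a, Muc5ac, Gkn1 and Ghrl, and above them for the other 6 genes.

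Intestinal mucosal genes were raised in part. Of 13 tested goblet and Paneth cell genes 10 rose and 3 fell (median log2 3.41; -0.03 in wild type). Fcgbp, a mucus-binding protein of goblet cells (chromosome 7, 28071236 to 28120862), measured 24.9, 15.6, 22.2, 64.4 and 31.8 CPM at 10 weeks and 2742, 3745, 2311, 4384 and 5289 CPM at 55 weeks. The lowest 55-week library held over 30 times the highest 10-week library, and the log2 difference was 6.86 ± 0.61. The membrane mucin Muc13 rose from 30.4 ± 2.32 to 622 ± 199 CPM, and the membrane mucin Muc3 from 0.346 ± 0.317 to 104 ± 33.3 CPM (log2 8.30 ± 0.64, or 8.93 without 10-week replicate 5). Lyz1, the lysozyme of Paneth cells, had 0, 0, 0.267, 0.0439 and 0 CPM at 10 weeks and 21.8, 4.55, 1.5, 27.2 and 15 CPM at 55 weeks; its log2 difference of 7.49 ± 0.94 became 9.48 without 10-week replicate 3. Spdef, a goblet cell transcription factor, rose by 0.35. Muc2, the secreted mucin that defines intestinal goblet cells, went the other way, from 2.65, 1.56, 1.56, 1.14 and 0.715 CPM to 0.199, 0.318, 0.385, 0.186 and 0.314 CPM (log2 -2.41 ± 0.36, adjusted p = 1.24e-06). Agr2, a disulfide isomerase of mucus-secreting cells, fell by 0.69, and the third gene that fell was Klk1.

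Absorptive genes showed no common direction: 7 of 21 tested rose and 8 fell (3 and 6 within the second library group, 9 and 7 with library size alone). Mep1b, a brush-border protease, rose from 0.26 to 42.5 CPM, while the apolipoprotein Apoa1 fell from 839 to 30.5 CPM, the fatty acid binding protein Fabp2 from 11.8 to 5.27 CPM and the microvillar cadherin Cdhr5 from 21.7 to 3.86 CPM. Among gut identity transcription factors 7 of 19 rose and 7 fell (10 and 5 with library size alone). Onecut2, a homeodomain factor, stood out with 3.66, 2.58, 4.45, 5.44 and 3.63 CPM at 10 weeks and 217, 159, 155, 231 and 235 CPM at 55 weeks (log2 5.64 ± 0.51, edgeR adjusted p = 9.14e-10). Foxa2, a forkhead factor of endodermal epithelium, fell from 67.9 ± 4.96 to 10.9 ± 4 CPM and Gata4, a factor of gastric identity, from 406 ± 33.6 to 182 ± 31.3 CPM. The 5 factors not called were Hnf4a, Hnf4g, Barx1, Irx3 and Irx5.

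Of 19 tested stem cell and Wnt feedback genes 10 rose and 5 fell (11 and 3 with library size alone). The 5 were Lgr5, Lrig1, Znrf3, Tnfrsf19 and Msi1. Lgr5, an R-spondin receptor found on stem and chief cells, fell from 3.47, 5.64, 8.95, 5.14 and 6.44 CPM to 0.655, 0.136, 0.423, 0.633 and 0.183 CPM, with no overlap (log2 -3.84 ± 0.34), and Tnfrsf19, another Wnt target, by 3.61. Axin2, a feedback inhibitor of Wnt signalling, rose from 1.59 to 3.71 CPM, Myc, a growth-promoting transcription factor, from 25.5 ± 3.16 to 78.3 ± 7.4 CPM, and Prom1, a membrane glycoprotein of progenitors, from 116 to 506 CPM. In the EGF family 5 of 11 genes rose (Ereg, Hbegf, Btc, Epgn and Nrg1) and 2 fell (Egf and Erbb2). Within the second library group 2 rose and 1 fell, and with library size alone 8 and 1. Ereg, epiregulin, rose from 1.06 ± 0.867 to 8.39 ± 1.45 CPM (log2 2.92 ± 0.44, or 3.55 without 10-week replicate 3), and Egf fell from 3.56 ± 1.17 to 0.43 ± 0.186 CPM. The receptor Egfr was at 136 CPM at 10 and 150.4 CPM at 55 weeks and not called (log2 0.14 ± 0.23).

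Cell cycle genes rose together by modest amounts. All 25 tested mitosis genes rose (median log2 0.85), against 27.2% of all tested genes, and none was called in wild type; the change differed between the genotypes in each of the 25, and in 15 of 25 within the second library group. Of 31 DNA replication genes 29 rose and 2 fell (median log2 1.14), while 5 fell in wild type. Top2a, the topoisomerase that untangles chromosomes before division, measured 42.2, 45.5, 48.4, 49.3 and 58.1 CPM at 10 weeks and 109, 109.9, 114, 97.2 and 114 CPM at 55 weeks, and every 55-week library lay above every 10-week library (log2 1.16 ± 0.12, edgeR adjusted p = 4.14e-09). Mki67, the common proliferation marker, rose from 123 ± 8.45 to 186 ± 28.3 CPM (log2 0.60 ± 0.15). Cdk1, the mitotic kinase, rose by 1.20, and the replicative helicase subunits Mcm2, Mcm4 and Mcm5 by 1.26, 1.48 and 1.57, Mcm5 from 12.9 ± 1.13 to 38.5 ± 3.67 CPM. The 2 replication genes that fell were Gins1, another part of the helicase (9.89 CPM at 10 and 4.79 CPM at 55 weeks, log2 -1.04 ± 0.12), and Tk1, thymidine kinase (28.4 CPM at 10 and 22.3 CPM at 55 weeks, -0.35 ± 0.13). Tk1 lost its call without 10-week replicate 1 or 55-week replicate 4 or 5 (adjusted p up to 0.0883) and within the second library group (adjusted p = 0.0896), and was at 0.07 with library size alone.

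Promoters of mitotic genes commonly pair CCAAT boxes, bound by NF-Y, with a cell cycle genes homology region (CHR), bound by complexes that repress these genes in resting cells. The 120 bases upstream of the start of Top2a and Cdk1 are printed from RefSeq (GRCm38.p6), each 5′ to 3′ in the gene's own direction, because they show this arrangement in 2 genes that rose. Capitals mark matches to the CHR letters TTTGAA or to CCAAT on either strand. Top2a lies on chromosome 11 and its stretch runs over chr11:99024190-99024309 on the minus strand; that of Cdk1 runs over chr10:69352913-69353032 on the minus strand.
Top2a: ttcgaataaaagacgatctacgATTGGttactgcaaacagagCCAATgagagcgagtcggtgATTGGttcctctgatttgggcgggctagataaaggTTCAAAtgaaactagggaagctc
Cdk1: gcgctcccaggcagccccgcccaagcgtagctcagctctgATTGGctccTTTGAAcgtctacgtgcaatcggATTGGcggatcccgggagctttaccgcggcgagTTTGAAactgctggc
In RefSeq windows from 250 bases before to 50 after each start, CHR letters were found in 17 of 22 windows of mitosis genes (20 genes matched by symbol) and in 17.9% of all 32851 windows. CCAAT was found in 19 of the 22 and in 37.4% of all windows. Matches to the 2 motifs do not overlap in these stretches. These are letter matches and not measured binding.

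Most genes induced by type I interferon fell. Of 33 tested genes 28 fell and 2 rose (median log2 -0.90; 0.02 in wild type, where none was called), and with library size alone 18 fell and 3 rose. By the test of the difference between genotypes the transgenic change was the lower in 17 of the 33 and the higher in 1 (27 and 1 within the second library group, 11 and 2 with library size alone). Irf1, Gbp6 and Parp14 were not called. Isg15, a ubiquitin-like antiviral protein, measured 286, 238, 172, 257 and 267 CPM in the 10-week libraries and 60.4, 91.5, 87.6, 49.2 and 57.2 CPM at 55 weeks, against 1.88 to 8.87 and 1.69 to 4.65 CPM in wild type at the 2 ages. The transgenic groups did not overlap and both lay above every wild-type library, and the log2 difference was -1.82 ± 0.28 (edgeR adjusted p = 4.84e-06). Ifit1, which blocks translation of viral RNA, went from 188, 160.3, 158, 240.4 and 299.9 CPM to 56.1, 89, 84.4, 35.7 and 47.1 CPM (log2 -1.75 ± 0.39), with wild-type libraries at no more than 9.78 CPM. Slfn4, a Schlafen-family gene, fell from 929 ± 149 to 173 ± 47.7 CPM (SD, n = 5; log2 -2.42 ± 0.26), the RNA sensor Ddx58 by 1.21, Ifi27l2a by 1.74 and the inducing factor Irf7 by 0.71. The call of Irf7 was lost with library group as a term (adjusted p = 0.0878) and with library size alone (adjusted p = 0.213). For Ifit1 and Irf7 the difference between the genotypes' age changes was not called (adjusted p = 0.413 and 0.0771). The 2 genes that rose, Gbp2 and Cxcl10, also answer to type II interferon. Gbp2, a guanylate-binding protein, was at 31.2 CPM at 10 and 79.4 CPM at 55 weeks (log2 1.35 ± 0.34), and its call was lost within the second library group (adjusted p = 0.052). Cxcl10, a chemokine for T cells, was at 0.184 CPM at 10 and 1.27 CPM at 55 weeks (log2 2.75 ± 0.57). Both overlapped between the ages.

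Interferon-stimulated genes are known for a promoter element, the interferon-stimulated response element (ISRE), bound by interferon regulatory factors and the factor complex ISGF3. The 120 bases upstream of Isg15 (chr4:156200819-156200938, minus strand) and Ifit1 (chr19:34640769-34640888, plus strand) are printed from RefSeq (GRCm38.p6), 5′ to 3′, since both genes fell with age and both hold the element. Capitals mark matches to the ISRE letters GAAANNGAAA on either strand.
Isg15: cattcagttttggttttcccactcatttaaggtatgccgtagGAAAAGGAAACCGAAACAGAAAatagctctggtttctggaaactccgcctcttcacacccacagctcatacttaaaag
Ifit1: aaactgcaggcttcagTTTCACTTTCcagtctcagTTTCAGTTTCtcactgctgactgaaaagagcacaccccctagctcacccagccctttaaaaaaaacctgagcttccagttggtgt
In Isg15 matches begin 78, 72 and 66 bases before the start and overlap one another, and in Ifit1 they begin 104 and 85 bases before it. The letters occurred in 15 of 26 windows of the interferon list (22 genes matched) and in 3.44% of all 32851 windows. None of the 25 windows of the chemokine and cytokine list held them.

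Genes of class II antigen presentation rose, while 8 of 11 class I genes were not called (1 of 11 with library size alone). All 9 tested MHC class II genes rose (median log2 3.62; 1 of 9 in wild type, median 0.91), and for 6 of 9 the rise exceeded that in wild type by the test of the difference (3 of 9 within the second library group, 8 of 9 with library size alone). Cd74, the invariant chain, measured 29.7, 41.8, 45.1, 39.8 and 25.6 CPM at 10 weeks and 533, 159, 165, 1192 and 871 CPM at 55 weeks. The 55-week libraries split, with replicates 2 and 3 at 159 and 165 CPM and replicates 1, 4 and 5 from 533 CPM upward, and all 5 lay above the 10-week libraries (log2 4.00 ± 0.49). Ciita, the master activator of class II genes, rose from 0.424 ± 0.202 to 10.9 ± 8.82 CPM, H2-Aa from 10.7 ± 2.31 to 132 ± 97.6 CPM and H2-Ab1 from 32.7 ± 3.71 to 158 ± 109.5 CPM (SD, n = 5). The difference between genotypes was not called for H2-Ab1 (adjusted p = 0.0706). In class I presentation 3 of 11 genes rose, against 27.2% of all tested genes. They were the peptide trimmer Erap1 (log2 0.79), the immunoproteasome subunit Psmb8 (0.88) and Psmb10. None fell, and 10 rose with library size alone. The class I light chain B2m was at 1619 CPM at 10 and 1693 CPM at 55 weeks (log2 0.06 ± 0.17) and H2-K1 at 1105 CPM at 10 and 1412 CPM at 55 weeks (0.35 ± 0.16), neither called.

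**Figure D3:**
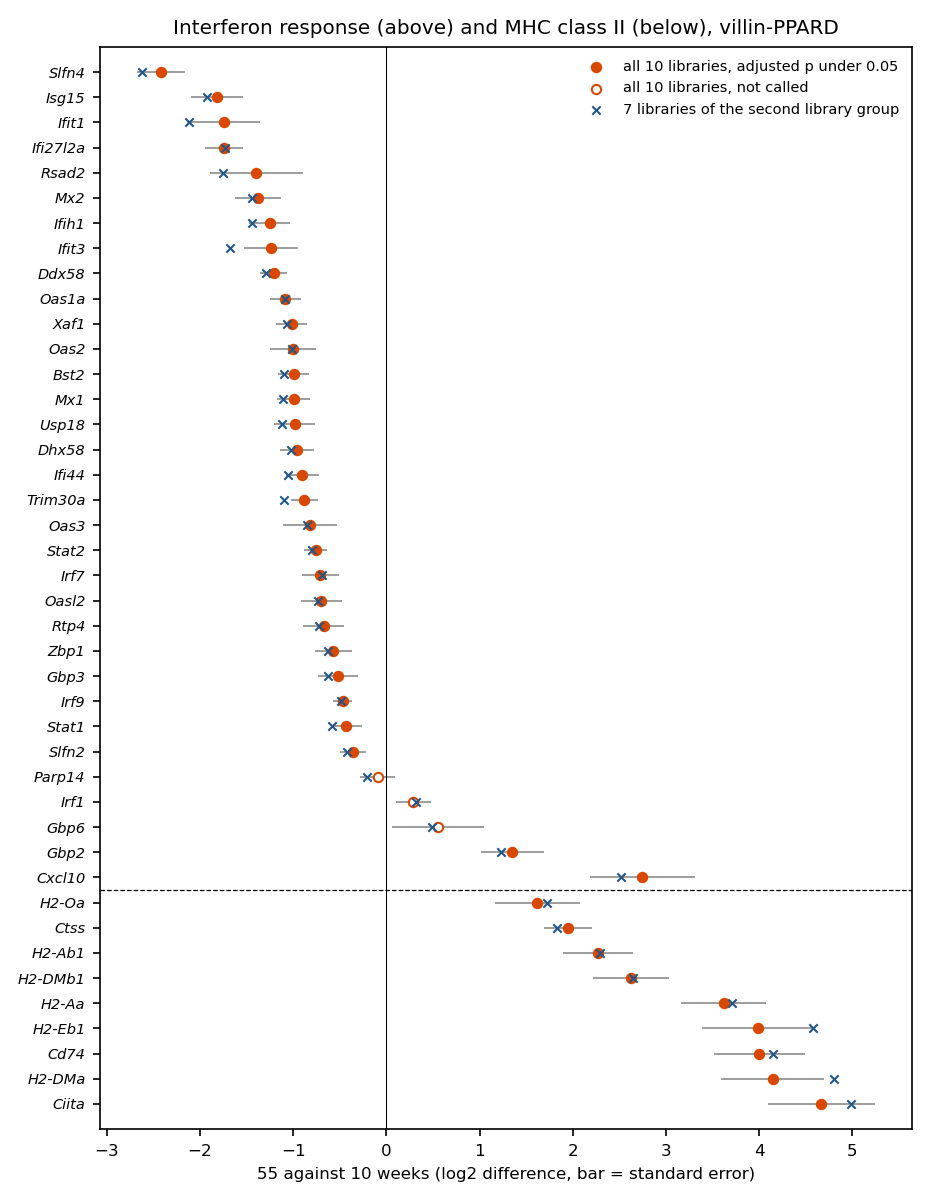
Log2 difference between 55 and 10 weeks in villin-PPARD mice for 33 interferon response genes (above the dashed line) and 9 MHC class II genes (below), with standard errors; filled points were called, and crosses give the value within the second library group. Of the 33 interferon genes 28 lie to the left of 0 as filled points, and all 9 class II genes lie to the right.

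Of 12 immune checkpoint genes 10 rose and 1, Lgals9, fell, with Ido1 not called. In wild type 1 rose and 1 fell. By the test of the difference the transgenic change was the higher in 3 of the 12 and the lower in 1 (6 and 1 with library size alone). Vtcn1, the epithelial checkpoint ligand B7-H4, rose from 32.3 ± 5.29 to 91.4 ± 15.1 CPM, 2.83-fold. Cd274, which encodes PD-L1, was at 3.47, 2.58, 2.72, 3.91 and 4.79 CPM at 10 weeks and 4.79, 5.59, 3.23, 11.4 and 9.12 CPM at 55 weeks. Replicates 4 and 5 were the highest and replicate 3 lay within the 10-week range, and the call of its log2 difference of 0.97 ± 0.26 was lost within the second library group (0.65, adjusted p = 0.155). Ctla4, a T cell inhibitory receptor, was at 0.0616 CPM at 10 and 1.35 CPM at 55 weeks. Lgals9, galectin-9, fell from 1521 ± 192 to 887 ± 163 CPM.

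Genes of inflammatory mediators rose. Of 23 tested epithelial chemokine and cytokine genes 16 rose and 3 fell (median log2 3.37; 0.66 in wild type), and Cxcl16, Ccl25, Cx3cl1 and Lif were not called. Cxcl1 and Cxcl5, which attract neutrophils, measured 0.189, 0.48, 0.624, 0.351 and 0.385 CPM and 0, 0.06, 0.356, 0 and 0.165 CPM at 10 weeks, and 6.27, 5.68, 3.2, 11.3 and 7.6 CPM and 43.6, 26.1, 10.7, 72.9 and 60.3 CPM at 55 weeks. Replicate 3 was the lowest and replicate 4 the highest 55-week library for both, and neither gene overlapped between ages. Their log2 differences were 4.02 ± 0.41 and 8.35 ± 0.67 (Cxcl5 9.46 without 10-week replicate 3), and Cxcl2, a close relative, had 6.17 ± 0.76 (7.44 without the same library). Tnf, tumour necrosis factor, rose from 0.0991 ± 0.0562 to 8.76 ± 2.75 CPM. The interleukin-1 genes rose too, Il1a from 0.0352 ± 0.0573 to 11.4 ± 1.35 CPM (log2 7.90 ± 0.62, or 9.16 without 10-week replicate 4), Il1b from 0.313 ± 0.134 to 8.82 ± 4.89 CPM and the receptor antagonist Il1rn from 2.67 ± 0.618 to 52.4 ± 3.19 CPM. Ccl20, which attracts lymphocytes and dendritic cells to mucosa, rose from 17.7 ± 2.23 to 99.9 ± 16.4 CPM. The 3 genes that fell were the alarmin Il33, Il18 and Tslp, Il33 from 508, 414, 604, 554 and 725 CPM to 86.2, 198, 147, 87.4 and 117 CPM (log2 -2.14 ± 0.24).

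Cxcl1 and Cxcl2 are textbook targets of NF-kB, the factor that inflammatory signals release to the nucleus. The 120 bases upstream of both starts (chr5:90891125-90891244 and chr5:90903779-90903898, plus strand) are printed from RefSeq (GRCm38.p6), 5′ to 3′, as neighbouring genes on chromosome 5 that rose together. Capitals mark matches to the NF-kB letters GGGANTTTCC on either strand.
Cxcl1: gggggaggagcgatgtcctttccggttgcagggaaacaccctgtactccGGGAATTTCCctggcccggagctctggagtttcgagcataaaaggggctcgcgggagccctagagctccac
Cxcl2: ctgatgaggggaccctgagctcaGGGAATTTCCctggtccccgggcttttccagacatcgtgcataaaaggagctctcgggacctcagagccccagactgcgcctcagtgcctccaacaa
The match begins 71 bases before the start of Cxcl1 and 97 before that of Cxcl2. These letters occurred in 5 of 25 windows of the list (20 genes matched) and in 0.411% of all 32851 windows.

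Antimicrobial and acute phase genes rose most among the immune lists by median. Of 19 tested 15 rose and none fell (median log2 6.18, the same with S100a8 at its lower bound), with Duox2, Duoxa2, Sprr2a1 and Sprr3 not called. In wild type 4 rose (median 0.92). The rise exceeded that in wild type in 10 of the 19 by the test of the difference, and in 3 within the second library group. Reg3g, a lectin that kills Gram-positive bacteria, measured 1.64, 1.26, 1.96, 1.36 and 1.54 CPM at 10 weeks and 122, 93.7, 19.3, 233 and 173 CPM at 55 weeks, and the related Reg1 rose from 0.686 ± 0.199 to 173 ± 84.4 CPM. In both replicate 3 was the lowest 55-week library, yet still above every 10-week library. Reg3b rose from 0.195 to 11.2 CPM, the protease inhibitor Slpi from 0.103 to 8.14 CPM, the receptor Pigr, which carries IgA across epithelium, from 49.1 ± 15.5 to 5728 ± 1308 CPM, and the nitric oxide synthase Nos2 from 0.0386 ± 0.0388 to 5.87 ± 4.22 CPM. Ltf, the iron-binding protein lactotransferrin, went from 0.252, 1.32, 3.56, 1.14 and 1.49 CPM to 848, 418, 146, 1252 and 1033 CPM (log2 8.83 ± 0.77, or 9.43 without 10-week replicate 3). Lcn2, the siderophore-binding lipocalin, had 2 counts in all 10-week libraries together and 1848 at 55 weeks, a ratio of 598 (95% counting interval 165 to 4944). The complement list gave 11 of 14 genes higher and 2 lower (Cd55 and Cd59a), with Cfi not called, and 4 higher in wild type. For complement the transgenic change was the higher in 3 of the 14 and the lower in 1 by the test of the difference. Those counts were 7 and 1 within the second library group and with library size alone. C3, the central component, rose from 1.49 ± 0.402 to 54.7 ± 22.1 CPM and factor B (Cfb) from 1.98 ± 0.642 to 6.64 ± 1.22 CPM, while the membrane inhibitor Cd59a fell from 105 ± 7.64 to 44.8 ± 4.84 CPM.

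The 15 named genes with the largest rises mix epithelial and immune products. Adgrg7, an adhesion receptor of intestinal epithelium, measured 0, 0, 0.134, 0.22 and 0.22 CPM at 10 weeks and 168, 141, 67.9, 216 and 333 CPM at 55 weeks (log2 10.47 ± 0.62). Nox1, the epithelial NADPH oxidase, went from 0, 0, 0, 0.132 and 0.11 CPM to 50.6, 24.5, 5.77, 88.4 and 89.2 CPM (log2 9.80 ± 0.77, or 10.60 without 10-week replicate 4), with replicate 3 the lowest and replicates 4 and 5 the highest. Prap1, a secreted lipid-binding protein of the gut, went from 0.165 ± 0.0405 to 104 ± 63.3 CPM, and here replicate 3 was the highest and replicate 4 the lowest (88.5, 135, 194, 28.2 and 72.9 CPM). Mab21l3 had 1 count at 10 weeks and 4017 at 55 weeks, a ratio of 2601 (95% counting interval 467 to 102756). Prl2c2, a proliferin with near-identical copies, had no counts at 10 weeks, so its rise is at least 228-fold against a floor of 3 counts over the group. On the same floor S100a8, a neutrophil calcium-binding protein, rose at least 86.2-fold and the immunoglobulin constant gene Ighg2c at least 165-fold. The immunoglobulin segments Ighv7-3, Igkv6-13, Igkv4-70 and Igkv13-85, which share reads with similar segments, rose at least 116, 75.7, 68.3 and 69.2-fold, and Igkv4-57-1 had a ratio of 906 (95% counting interval 162 to 35803). Ltf, Lcn2 and Cxcl5, described above, complete the 15. The difference between genotypes was called for 8 of the 15 and not for Prl2c2, Nox1, Ighg2c, Ighv7-3, Igkv6-13, Igkv4-70 and Igkv13-85.

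Markers of cells other than epithelium were followed in the same libraries. All 20 tested macrophage and myeloid genes rose (median log2 1.62; 7 rose in wild type), and their summed level went from 82.1 to 97.5 CPM at 10 weeks to 157 to 323 CPM at 55 weeks, with none of 22 markers at 0 in either group. Cd68 rose from 7, 5.7, 5.92, 8.03 and 5.72 CPM to 10.9, 11.5, 15.5, 11.5 and 11.1 CPM, the integrin Itgam from 1.22 to 8.23 CPM, Itgax from 1.59 to 6.81 CPM and the fungal receptor Clec7a from 0.295 to 4.65 CPM. Of 18 T and natural killer cell markers 9 passed the low-count filter and were tested, and all 9 rose. The 18 together summed to 2.37 to 3.39 CPM at 10 weeks and 11.7 to 35.6 CPM at 55 weeks. A marker near 0 at 10 weeks passed the filter only if it was higher in other libraries. For such markers, in any list, a rise of the tested members was therefore in part fixed in advance. Cd3e, of the T cell receptor complex, was at 0.315 CPM at 10 and 2.55 CPM at 55 weeks, Il2rb at 0.164 CPM at 10 and 2.65 CPM at 55 weeks, and Gzmb, granzyme B, had 2 counts at 10 weeks and 320 at 55 weeks, a ratio of 104 (95% counting interval 28.4 to 859). Of 12 neutrophil markers 7 were tested and all 7 rose, with the same limit. The sum of the 12 went from 5.48 to 12.9 CPM at 10 weeks to 160 to 1427 CPM at 55 weeks. Ltf, which epithelium also makes, holds most of that sum at 55 weeks, and the defining markers Ly6g, Mpo, Elane and Camp were at 0 counts at 10 weeks while only Elane was at 55 weeks. Cxcr2, the neutrophil chemokine receptor, was at 0.122 CPM at 10 and 2.19 CPM at 55 weeks, Csf3r at 0.656 CPM at 10 and 5.76 CPM at 55 weeks, and S100a9 had 1 count at 10 weeks and 742 at 55 weeks, a ratio of 480.4 (95% counting interval 86 to 19001).

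Of 11 tested B and plasma cell genes 7 rose, Derl3 and Xbp1, which epithelium also expresses, fell, and Sdc1 and Prdm1 were not called. Jchain, which joins secreted antibodies, measured 0.882, 2.58, 1.96, 2.46 and 1.82 CPM at 10 weeks and 182, 77.6, 153, 254 and 203 CPM at 55 weeks. Igha, the heavy chain of mucosal IgA, rose from 9.33, 23.4, 9.84, 16.4 and 11.1 CPM to 1579, 696, 1410, 2109 and 1510 CPM, and the light chain Igkc from 8.42 ± 4.15 to 888 ± 363 CPM. Replicate 2 was the lowest 55-week library for all 3 genes. The IgM heavy chain Ighm was at 1.43 CPM at 10 and 7.69 CPM at 55 weeks, with a log2 difference of 2.42 ± 0.46 that was 1.59 without 55-week replicate 4, while Cd79a rose from 0.0704 to 3.26 CPM and Mzb1 from 0.0711 to 3.91 CPM. These rises also occurred in wild type: Jchain, Igha and Igkc changed there by 3.61 ± 0.38, 3.77 ± 0.44 and 3.94 ± 0.43 on the log2 scale, and old wild-type libraries held 102 to 248 CPM of Igha. The transgenic change was larger by 2.85 ± 0.55, 2.94 ± 0.58 and 2.78 ± 0.57 (edgeR adjusted p = 2.23e-04, 2.69e-04 and 4.20e-04). The mast cell proteases Mcpt1 and Mcpt2 rose from 2.46 to 36.8 CPM and from 6.87 to 82.9 CPM, and Mcpt4 and Tpsb2 rose as well. Kit, the receptor of mast cells and other lineages, fell from 29.1 ± 4.31 to 4.38 ± 1.07 CPM and Hdc fell. Cma1, Cpa3, Ms4a2 and Siglecf were not called, and Epx was at 0 in both groups. In wild type 6 of the 10 tested mast cell and eosinophil genes rose and 1 fell. By the test of the difference the transgenic change was the higher in 2 of the 10 and the lower in 5. Within the second library group these counts were 2 and 2, and with library size alone 2 and 3. The part of these immune cells in the mediator and class II results above was not tested.

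Counts of stromal markers moved with the scaling and the library group. Of 16 fibroblast genes 4 rose (Dcn, Pdgfrb, Thy1 and Fn1) and 2 fell (Fbln1 and Mfap5), against 27.2% and 24.5% of all tested genes. The summed level of the list overlapped between ages (368 to 653 and 510 to 897 CPM). Dcn, decorin, was at 26.7 ± 13.5 and 59.4 ± 7.93 CPM, Thy1 at 0.719 CPM at 10 and 4.86 CPM at 55 weeks and Pdgfra at 10.3 CPM at 10 and 14.6 CPM at 55 weeks, not called. Of 13 smooth muscle genes 1 rose (Flna) and 1 fell (Synm), and Acta2, smooth muscle actin, was at 11.1, 21.2, 29.5, 11.7 and 6.77 CPM and 20, 16.1, 16.1, 22.8 and 17.4 CPM. Of 14 endothelial genes 2 rose (Vwf and Esam) and 2 fell (Kdr and Tek), and the pan-endothelial Pecam1 (7.33 CPM at 10 and 10.4 CPM at 55 weeks) and Cdh5 (4.28 CPM at 10 and 6.46 CPM at 55 weeks) were not called. The summed level of the endothelial list was 106.4 to 154.3 CPM at 10 weeks and lower, 89.5 to 105.6 CPM, at 55 weeks, without overlap. Within the second library group 7 fibroblast, 5 smooth muscle and 5 endothelial genes rose, and none, 1 and 1 fell. With library size alone 8, 4 and 7 rose and 1 fell in each list. Neural and glial genes gave 2 higher (S100b and Ret), 2 lower and 2 not called; Ret, a receptor kinase, rose from 1.06 to 18.8 CPM, and S100b had 3 counts at 10 weeks and 373 at 55 weeks, a ratio of 80.5 (95% counting interval 27.3 to 392). Erythroid genes gave 2 of 4 lower (Hba-a1 and Alas2), and none within the second library group, with library size alone or without 55-week replicate 4. The call of Hba-a1 (log2 -1.10 ± 0.40) was lost without 10-week replicate 1 or 55-week replicate 1, 4 or 5 (adjusted p up to 0.0657), and within the second library group (adjusted p = 0.0831). Of 9 adipocyte markers 3 were tested (Cidec, Fabp4 and Lpl), and all 3 fell. Among the others Adipoq was at 0 counts at 10 weeks only, Lep and Plin1 at 55 weeks only, and Retn and Cfd at both ages. Of 13 pancreatic acinar markers 4 were tested, and 3 fell (Try5, Rbpjl and Ptf1a, with Cela1 not called). The summed level of the 13 overlapped between ages (27.7 to 38.5 and 30.4 to 49.6 CPM). Pdx1, a factor of the antrum, rose, while Gast and Nkx6-3 were not called.

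**Figure D4:**
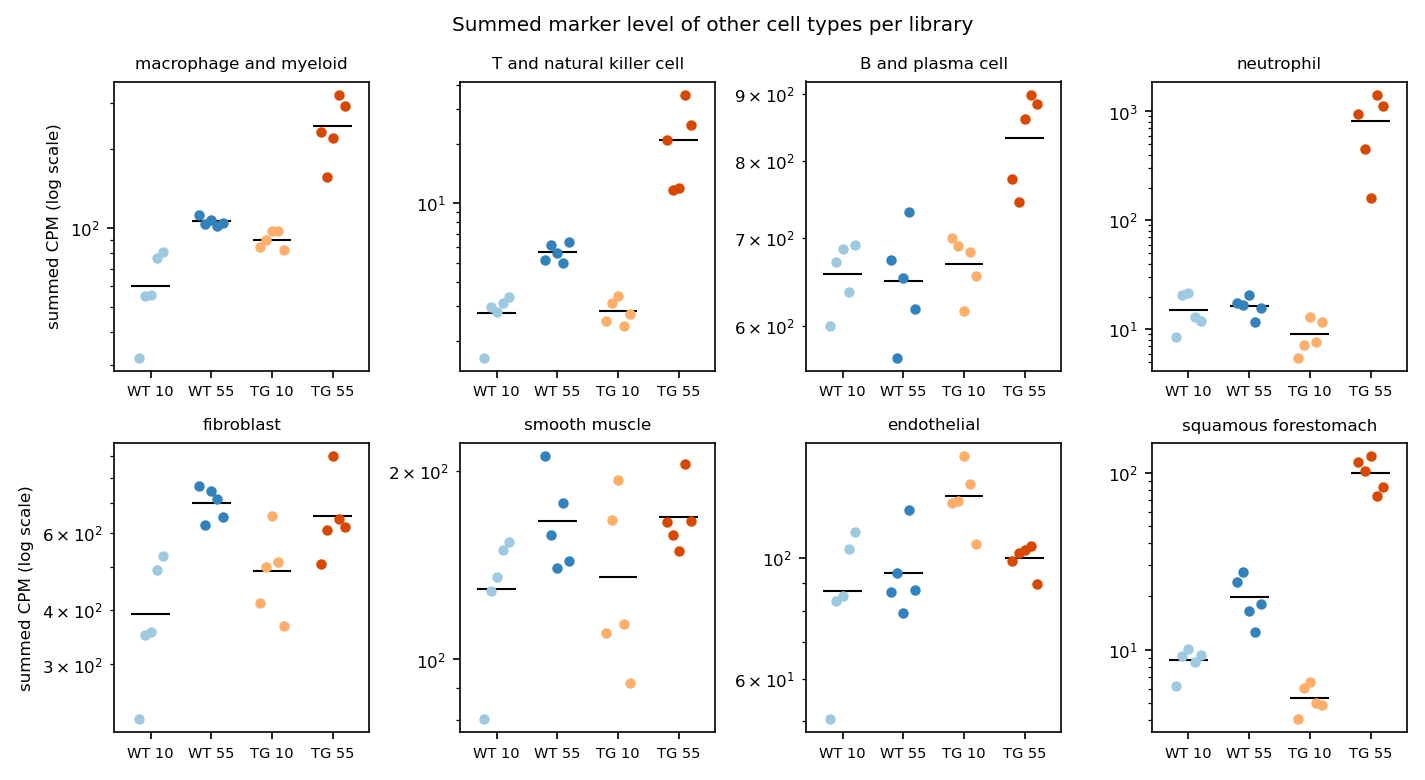
Summed CPM of 8 marker lists (log scale) in each library of wild-type (WT) and villin-PPARD (TG) mice at 10 and 55 weeks; points are single mice and lines are group means. In the TG libraries the myeloid, T cell, B and plasma cell, neutrophil and squamous sums at 55 weeks lie above all 10-week values. The endothelial sums at 55 weeks lie below all 10-week values, and the fibroblast and smooth muscle sums overlap.

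Markers of squamous forestomach, a tissue next to the corpus, were higher at 55 weeks. Of 11 tested genes 8 rose, none fell, and Krt10, Krt1 and Sbsn were not called. The limit set by the low-count filter applies here too. All 16 markers listed, tested or not, summed to 4.03 to 6.59 CPM at 10 weeks and 73.8 to 124 CPM at 55 weeks. Wild-type sums were 12.6 to 27.5 CPM at 55 weeks. Ivl, involucrin of the cornified envelope, measured 0.189, 0.72, 0.401, 0.395 and 0.44 CPM and 40.6, 66.6, 81.5, 31.8 and 44.8 CPM, and the basal adhesion gene Dsg3 rose from 0.0496 to 1.91 CPM and the secreted Dmkn from 0.641 to 27.4 CPM. Of the 16 markers listed Dsg1a was at 0 counts at 10 weeks and Krtdap at 55 weeks. The basal keratin Krt14 had 1 count at 10 weeks and 487 at 55 weeks, a ratio of 315 (95% counting interval 56.3 to 12480). Krt5, its partner, was at 0.146 CPM at 10 and 7.03 CPM at 55 weeks, and its log2 difference of 5.46 ± 0.99 was 4.45 without 55-week replicate 1, the highest library. Whether squamous tissue entered the scrapings was not tested.

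Genes of epithelial junctions and filaments moved unevenly. Of 15 claudin and tight junction genes 7 rose and 2 fell (Cldn8 and Cgn). Cldn2, a pore-forming claudin of leaky epithelia (ENSMUSG00000047230, chromosome X, 139800828 to 139811386), measured 0.63, 1.38, 1.16, 1.45 and 0.936 CPM at 10 weeks and 243, 185, 156, 155 and 233 CPM at 55 weeks, a log2 difference of 7.42 ± 0.34 (edgeR adjusted p = 2.51e-15). Cldn7 rose from 6.89 ± 1.1 to 281 ± 29.9 CPM and Cldn8 fell from 2.04 ± 0.56 to 0.0526 ± 0.0375 CPM. The gastric Cldn18 was at 2352 CPM at 10 and 2013 CPM at 55 weeks and not called. Epcam, the epithelial adhesion molecule, rose from 304 ± 24.3 to 661 ± 51.6 CPM. Among 10 keratins 4 rose (Krt7, Krt20, Krt17 and Krt12), 3 fell (Krt19, Krt23 and Krt80) and 3 were not called (Krt8, Krt18 and Krt15); Krt7, a duct-type keratin, went from 38.1 ± 6.69 to 342 ± 86.8 CPM and Krt18 was at 1058 CPM at 10 and 989 CPM at 55 weeks. Of 7 gasdermins, membrane pore formers, 6 fell and none rose (median log2 -2.66; -0.21 in wild type). Gsdma2 fell from 2369, 2610, 1956, 1949 and 2087 CPM to 429.7, 449, 362, 350.1 and 315 CPM and Gsdmc4 by 2.58, while Gsdmd, the gasdermin of inflammasomes, was at 149 CPM at 10 and 171 CPM at 55 weeks and not called. Close relatives within the Gsdma and Gsdmc clusters can share reads.

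Of 21 mucin glycosylation genes 5 rose (Galnt5, Galnt7, Fut9, St3gal1 and St3gal4) and 9 fell, against 27.2% and 24.5% of all tested genes. But 1 rose and 8 fell within the second library group, and 11 rose and 4 fell with library size alone. A4gnt, which caps gland mucin with alpha-linked N-acetylglucosamine, fell from 56.6 to 7.84 CPM and B4galnt3 from 516 to 62.3 CPM. Matrix proteases rose: of 16 metalloproteinase and inhibitor genes 12 rose and 2 fell (Timp3 and Timp4), with Mmp2 and Timp2 not called, and 6 rose in wild type. Mmp10, stromelysin-2, measured 1.7, 2.4, 2.14, 3.12 and 1.76 CPM and 51.7, 38.6, 18.3, 64.9 and 59.5 CPM, and the gelatinase Mmp9 0.504, 0.66, 0.846, 0.878 and 0.825 CPM and 9.69, 9.46, 14.2, 10.9 and 10.1 CPM. For Mmp10 the wild-type change was 3.16 ± 0.64, and the difference between the genotypes was not called (adjusted p = 0.314). Of 16 collagen genes 5 rose (Col4a2, Col5a2, Col12a1, Col14a1 and Col18a1) and 1, Col7a1, fell, against 27.2% of all tested genes higher and against 7 collagen genes higher and none lower in wild type. Within the second library group, and with library size alone, 9 rose and 1 fell. Col18a1, of basement membranes, rose from 60.3 ± 7.19 to 328 ± 71.5 CPM, Col12a1 from 3.72 to 25 CPM, and Col7a1, of anchoring fibrils, fell from 7.13 to 1.27 CPM. Col4a2 (log2 0.60 ± 0.23) lost its call without 10-week replicate 1 or 5 or 55-week replicate 4 or 5 (adjusted p up to 0.0748). Of 14 laminin-332 and integrin genes 6 rose and none fell (3 rose within the second library group, 10 with library size alone); the collagen receptor Itga2 rose from 3.1 ± 1.26 to 87.2 ± 23.6 CPM. Fn1, fibronectin, was at 27.4 CPM at 10 and 74.6 CPM at 55 weeks and Tnc, tenascin C, at 7.32 CPM at 10 and 27.5 CPM at 55 weeks, with log2 differences in wild type of 1.18 ± 0.30 and 1.90 ± 0.42.

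Targets of PPAR did not move as one. Of 29 tested PPAR target and fatty acid oxidation genes 19 fell and 4 rose (median log2 -0.62), with Ppard itself among the 19 and the 4 being Angptl4, Plin2, Vnn1 and Acot1; with library size alone 12 fell and 6 rose. Plin2, which coats lipid droplets, measured 9.83, 8.57, 8.24, 9.66 and 7.54 CPM and 33.9, 50.9, 54.7, 40.3 and 38.3 CPM, with no overlap. Vnn1, a pantetheinase, rose from 61 ± 17.7 to 539 ± 60.8 CPM. Angptl4, an inhibitor of lipoprotein lipase often used as a readout of PPARD, was at 4.92, 4.62, 4.41, 5.53 and 3.8 CPM and 5.7, 10.9, 14.6, 4.84 and 6.93 CPM; replicate 4 at 55 weeks lay among the 10-week values, and the call (log2 0.87 ± 0.25) was lost within the second library group (adjusted p = 0.064). Ppara, the related receptor, fell from 2.23 ± 0.131 to 0.424 ± 0.166 CPM. Of 30 nuclear genes of the respiratory chain 28 fell (median log2 -0.46), Sdha and Sdhd not being called, but with library size alone 2 rose and 1 fell. In wild type 19 fell (median -0.37), and the change differed between genotypes in 3 of the 30 (1 within the second library group, 6 with library size alone). Cox5b was at 159 CPM at 10 and 97.1 CPM at 55 weeks (log2 -0.72 ± 0.10) and Ndufa9 at 75.5 CPM at 10 and 60.2 CPM at 55 weeks (-0.33 ± 0.10, -0.30 with adjusted p = 0.0758 within the second library group, and 0.09 with library size alone).

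Of 12 mitochondrially encoded genes 2, mt-Nd3 and mt-Atp6, were called lower. Both had 1 high 10-week library, replicate 3, where mt-Nd3 was 4.59 CPM against 0.055 to 0.395 CPM in the other 10-week libraries. Without that library their log2 differences were -1.15 and -0.79, not called (adjusted p = 0.565 and 0.676), and leaving out 1 of 55-week replicates 2, 3 and 4 for mt-Nd3, or any 1 55-week library for mt-Atp6, also ended the call. Neither was called within the second library group or with library size alone. mt-Co1, of cytochrome oxidase, was at 12566 CPM at 10 and 10555 CPM at 55 weeks and mt-Nd1, of complex I, at 4094 CPM at 10 and 3240 CPM at 55 weeks, neither called. The mitochondrial biogenesis list had 3 of 12 higher (Tfam, Tfb1m and Tfb2m) and 6 lower, against 27.2% and 24.5% of all tested genes. In this list 6 rose and 2 fell with library size alone, and 1 rose and 6 fell within the second library group. Its coactivator Ppargc1a fell from 4.98, 6.9, 8.86, 6.76 and 7.76 CPM to 1.82, 1.96, 1.77, 1.56 and 2.14 CPM and Perm1, a regulator of muscle-type mitochondria, from 7.58 ± 0.845 to 0.256 ± 0.104 CPM. Ppargc1b, a second coactivator (log2 -0.49 ± 0.11), lost its call with library size alone (adjusted p = 0.605).

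Of 25 fatty acid and cholesterol synthesis genes 13 rose and 2 fell (Me1 and Hmgcs1; 8 rose and 3 fell within the second library group, and 20 rose and none fell with library size alone), against none higher in wild type. Fads2 and Fads1, which make polyunsaturated fatty acids, rose from 4.16, 4.2, 4.28, 4.83 and 5.01 CPM to 65.9, 53.9, 38.7, 68.3 and 67.2 CPM and from 9.89 ± 2.34 to 145 ± 24 CPM, and the stearoyl desaturase Scd2 from 85 to 417 CPM. Fasn, fatty acid synthase, was at 423 CPM at 10 and 481 CPM at 55 weeks and not called (log2 0.19 ± 0.12). In glycolysis and glucose uptake 6 of 22 genes rose and 6 fell, near the shares of all tested genes (27.2% higher and 24.5% lower). Within the second library group 5 rose and 3 fell, and with library size alone 14 and 1. Hexokinase 2 (Hk2) rose from 24 ± 2.8 to 186 ± 48.2 CPM and lactate dehydrogenase B (Ldhb) fell from 65.2 ± 8.59 to 2.99 ± 1.03 CPM. The glucose transporter Slc2a1 (log2 -0.31 ± 0.11) lost its call without 55-week replicate 1 (adjusted p = 0.08) and within the second library group (adjusted p = 0.134), and was at 0.10 with library size alone. Cytochrome P450 genes gave 4 of 15 higher (Cyp2c66, Cyp26b1, Cyp27a1 and Cyp51) and 8 lower, against the same shares of all tested genes. Within the second library group 3 were higher and 5 lower, and with library size alone 5 and 4. Cyp2s1 was among the 8, falling from 1440 to 323 CPM. Of 28 glutathione and redox genes 13 rose and 10 fell (15 and 4 with library size alone). The glutathione synthesis enzyme Gclc, the transferase Gsta3 and the peroxidase Gpx2 rose by 1.41, 2.11 and 1.49 on the log2 scale, and the aldehyde dehydrogenase Aldh3a1 fell by 1.98. Nqo1, a quinone reductase, was called lower (log2 -0.42 ± 0.17), but not without any 1 of 6 libraries (10-week replicates 1, 2 and 4, 55-week replicates 1, 4 and 5; adjusted p up to 0.127), nor within the second library group (adjusted p = 0.206).

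Of 21 p53 target and senescence genes 12 rose and 4 fell (Cdkn2b, Sesn1, Btg2 and Perp). Within the second library group 10 rose and 2 fell, and with library size alone 14 rose and none fell. Cdkn2a, which encodes the tumour suppressors p16 and p19Arf, had 1 count at 10 weeks and 192 at 55 weeks, a ratio of 124 (95% counting interval 22 to 4935), with 55-week values of 1.34, 1.18, 1.66, 1.49 and 0.941 CPM. Eda2r, a p53-induced receptor, rose from 0.0798 ± 0.0319 to 3.62 ± 0.503 CPM, while Cdkn1a, which encodes p21, was at 217 CPM at 10 and 173 CPM at 55 weeks and not called (log2 -0.33 ± 0.15, 0.08 with library size alone). Endoplasmic reticulum stress genes gave 3 of 22 higher (Pdia4, Sdf2l1 and Ero1l) and 10 lower (1 and 10 within the second library group, 10 and 5 with library size alone), with Ddit3 and Atf4 lower by 0.60 and 0.70 (Ddit3 adjusted p = 0.332 with library size alone). The immediate early list gave 2 of 17 higher (Egr2 and Ier3) and 6 lower (5 and 1 with library size alone), and the core clock list 2 of 17 higher (Clock and Bhlhe40) and 6 lower (5 and 5). Of 25 ribosomal protein and elongation factor genes 19 rose and none fell (median log2 0.36), with Rps3, Rpl32 and Rplp0 higher by 0.43, 0.54 and 0.47. Of 14 prostaglandin and lipoxygenase genes 6 rose and 3 fell (Alox5, Alox5ap and Ptgds). Ptgs2, the inducible cyclooxygenase, rose from 0.252, 0.42, 2.05, 0.615 and 0.936 CPM to 4.64, 6.14, 3.7, 8.9 and 8.6 CPM (log2 2.85 ± 0.42, or 3.49 without 10-week replicate 3), the phospholipase Pla2g4a from 20.3 to 45 CPM and Alox15 from 0.27 to 2.2 CPM.

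**Figure D5:**
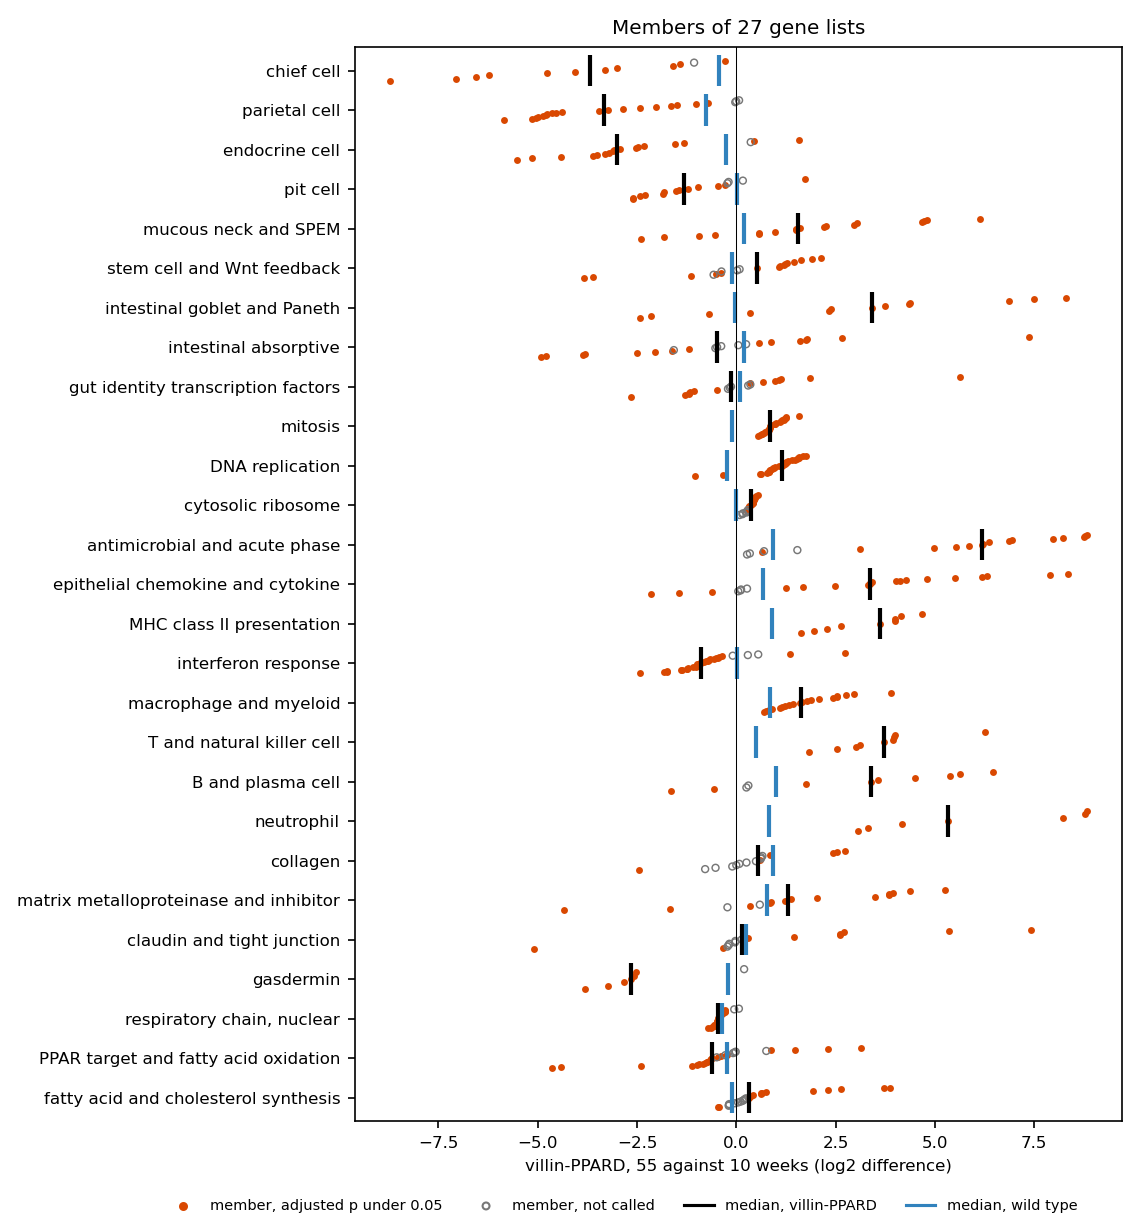
Log2 difference between 55 and 10 weeks in villin-PPARD mice (horizontal axis) for the tested members of 27 gene lists; filled points were called at an adjusted p under 0.05, open points were not, and black and blue bars are the list's median in villin-PPARD and in wild-type mice. The chief, parietal and endocrine medians lie below −3, and the antimicrobial and neutrophil medians above 5.

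Genes with the lowest adjusted p for the difference between the genotypes, among those called in the transgenic comparison, were named as 6 per direction, and those not given above follow in part. C4bp, an inhibitor of complement, measured 4.16, 5.4, 4.41, 3.95 and 4.29 CPM at 10 weeks and 96.1, 97.7, 76.7, 122 and 132 CPM at 55 weeks while it fell in wild type (log2 -0.65 ± 0.17), a difference of 5.21 ± 0.22 (edgeR adjusted p = 2.78e-16). Rbbp7, a histone-binding chromatin subunit, rose from 58.6 ± 5.49 to 272 ± 16.4 CPM, the Wnt receptor Fzd1 from 6.14 ± 0.311 to 27.3 ± 4.08 CPM and the membrane protein Shisa2 from 5.59 ± 0.649 to 42.5 ± 4.21 CPM. In the other direction Vars2, the mitochondrial valyl-tRNA synthetase, fell from 352 ± 21.8 to 64.2 ± 8.32 CPM, Fgfbp1, which carries fibroblast growth factors, from 116 ± 7.14 to 12.7 ± 4.2 CPM and the adaptor Pstpip1 from 52 ± 9.51 to 8.03 ± 2.54 CPM. Pstpip1 rose in wild type (log2 1.01 ± 0.16). Gsdma2 and Hrh2, described above, belong to the same set.

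The genes named with values beyond the naming rule were chosen after their values were seen: Epcam, Cdh1, Kcnq1, Slc9a4, Chrm3, Aqp5, Cxcl17, Krt20, Slc18a1, Ddc, Agr2, Gins1, Tk1, Gbp2, Cxcl10, Isg15, Lgals9, Cxcl2, Il33, Igha, Igkc, Ighm, Gsdmd, Vnn1, Plin2, Cdk1, Cftr, Il1b, Nos2, Pigr and Spdef.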

How the data were processed

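The authors deposited raw read counts per gene for 28 libraries of hand-scraped gastric corpus epithelium (poly-A selected, TruSeq, HiSeq4000, 75-base pairs, per the labels' protocols). The submitters' processing notes name TopHat2 2.0.14, HTSeq 0.6.1, DESeq2 and build mm10; neither the gene models nor a strand option is named, and the kit does not mark strand, so overlapping genes cannot be separated. Transgenic totals ran from 17237529 to 30891108 counts.

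Counts as deposited were fitted with edgeR 4.0.16 (R 4.3.3; robust quasi-likelihood, TMM factors, low-count filter by group, all 28 libraries, 1 mean per genotype and age). Calls were made at an adjusted p (Benjamini-Hochberg) under 0.05. Genes were tested for age in each genotype and for the difference between genotypes, and the fit was tested on simulated data. CPM are counts per 1000000 reads after TMM scaling, and intervals cover counting error only. Alternatives used limma 3.58.1, DESeq2 1.42.0, other scalings, filters and subsets of libraries. The genes of the comparison and the 54 gene lists were chosen with earlier results of these data known. Named genes were Ppard and Vil1, the 15 largest rises and falls without overlap (mean of at least 2 CPM), the first 2 and the 3 lowest-p members of each list, and 6 genes per direction by the difference between genotypes; 198 of the 280 genes this gives, and 31 others, are in the text. Coordinates are from GENCODE on GRCm38, where 227 of 229 symbols had 1 match.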

Additional observations from a re-analysis of the deposited data

Results flagged for a closer look

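In 11 of 393 tests over the 10-week and 55-week transgenic groups, 1 library lay far from the other 4 (Dixon test); chance flags about 1 in 20 groups. Shisa2 was 35.3 CPM in 55-week replicate 4, where the other 4 libraries were 42.7 to 45.6 CPM. Muc6 was 1660 CPM in 10-week replicate 5, where the other 4 libraries were 951 to 1110 CPM. Il1a was 9.06 CPM in 55-week replicate 1, where the other 4 libraries were 11.5 to 12.5 CPM. Reg1 was 39.5 CPM in 55-week replicate 3, where the other 4 libraries were 155 to 264 CPM. Cfb was 0.891 CPM in 10-week replicate 3, where the other 4 libraries were 1.93 to 2.52 CPM. Cd68 was 15.5 CPM in 55-week replicate 3, where the other 4 libraries were 10.9 to 11.5 CPM. Pdgfra was 22.2 CPM in 55-week replicate 3, where the other 4 libraries were 11.5 to 13.8 CPM. Dcn was 45.8 CPM in 55-week replicate 2, where the other 4 libraries were 59.5 to 65.2 CPM. mt-Nd3 was 4.59 CPM in 10-week replicate 3, where the other 4 libraries were 0.055 to 0.395 CPM. mt-Atp6 was 12.5 CPM in 10-week replicate 3, where the other 4 libraries were 0.378 to 0.922 CPM. Cdk1 was 8.87 CPM in 10-week replicate 2, where the other 4 libraries were 10.1 to 10.5 CPM. 

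The change from 10 to 55 weeks differed between the genotypes, by edgeR's test of the difference itself (adjusted p under 0.05), in 180 of the 229 genes examined. Over all tested genes it was 5748 of 15812 (36.4%). The 229 were named largely for their transgenic change, and some by this same test, so a higher share among them was built in. Values are the transgenic minus the wild-type log2 change. Among the genes with the more positive transgenic change the top values were Mab21l3 10.25, Cxcl5 10.15, Muc3 9.66, Adgrg7 9.52, S100a8 9.33, Prap1 8.68, Ltf 8.60, Lcn2 7.85 and Fcgbp 7.64. Then came Nos2 7.59, S100a9 7.05, Reg1 7.03, Il1a 6.84, Mep1b 6.62, Gzmb 6.57, Pigr 6.34, Lyz1 6.30 and S100b 6.23. Lower in this order were Tnf 6.21, Cldn2 6.16, Krt14 5.89, Cdkn2a 5.89, Olfm4 5.84, Ctla4 5.71, Igkv4-57-1 5.40, Onecut2 5.34 and C4bp 5.21. Next were Eda2r 5.16, Reg3g 5.14, Cftr 4.90, Ivl 4.75, Cldn7 4.69, Cxcl10 4.58, Cd14 4.49, Dmkn 4.43 and Ret 4.34. Further values were Muc13 4.33, Krt5 4.16, Fads1 4.14, C3 4.05, Cd44 4.03, Fads2 3.96, Il1b 3.83, Ciita 3.76 and Dsg3 3.68. These were followed by Itga2 3.63, Il2rb 3.53, Shisa2 3.37, Slpi 3.36, Cxcl1 3.15, Il1rn 3.12, Cd74 3.11, Igha 2.94 and Alox15 2.92. Down the order stood Ptgs2 2.91, Cxcr2 2.88, Jchain 2.85, Cd79a 2.80, Igkc 2.78, Clec7a 2.72, H2-Aa 2.70, Scd2 2.68 and Fzd1 2.68. After these came Krt7 2.59, Hk2 2.57, Mcpt1 2.55, Cd3e 2.53, Mmp9 2.44, Rbbp7 2.29, Prom1 2.16, Slc18a1 2.12 and Mcpt2 2.12. Smaller differences were Ereg 2.10, Vnn1 2.09, Mcm5 2.07, Gsta3 1.92, Mcm4 1.80, Mcm2 1.78, Csf3r 1.77, Itgam 1.72 and Plin2 1.66. Nearer to 0 were Ccl20 1.62, Myc 1.57, Col12a1 1.44, Top2a 1.43, Pla2g4a 1.33, Vil1 1.33, Gclc 1.32, Cdk1 1.31 and Axin2 1.28. Below them came Epcam 1.25, Erap1 1.24, Gpx2 1.23, Itgax 1.22, Krt20 1.04, Vtcn1 0.77, Kcnq1 0.75, Chrm3 0.71 and Mki67 0.65. At the lower end were Rplp0 0.56, Fasn 0.52, Rps3 0.48, Rpl32 0.39 and Spdef 0.37. 

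The transgenic change was the more negative in 76 of the 180. Those nearest to 0 were Ppard -0.33, Gsdmd -0.39, Ppargc1b -0.43, Slc2a1 -0.44, Cdkn1a -0.60, Atf4 -0.84, Lgals9 -0.92, Agr2 -0.97 and Ddit3 -1.01. More negative than these were Gata4 -1.09, Cxcl17 -1.09, Gins1 -1.26, Ddx58 -1.32, Cd59a -1.32, Ppargc1a -1.33, Isg15 -1.38, Fabp2 -1.39 and Hba-a1 -1.68. The next in size were Kit -1.69, Cdhr5 -1.70, Cyp2s1 -1.81, Hdc -1.89, Ifi27l2a -1.92, Gkn1 -1.98, Ppara -1.99, Egf -2.23 and Foxa2 -2.23. Beyond them stood Aldh3a1 -2.25, Aqp5 -2.31, Muc6 -2.33, Il33 -2.36, Gsdmc4 -2.37, Vars2 -2.39, Dpcr1 -2.39, Psca -2.44 and Kcnj15 -2.45. Further down were Col7a1 -2.45, B4galnt3 -2.46, Muc5ac -2.53, A4gnt -2.54, Capn9 -2.61, Syp -2.76, Gsdma2 -2.77, Muc2 -2.78 and Slfn4 -2.87. Stronger still were Ghrl -3.06, Fgfbp1 -3.17, Tnfrsf19 -3.27, Lgr5 -3.51, Kcnj16 -3.62, Pstpip1 -3.71, Cldn8 -3.74, Ldhb -3.76 and Hrh2 -3.89. Lower again were Perm1 -3.90, Prlr -3.96, Atp4a -4.02, Atp4b -4.10, Scg2 -4.12, Gpm6a -4.16, Pnliprp1 -4.20, Apoa1 -4.22 and Sycn -4.29. Past these came Pdia2 -4.33, Slc38a3 -4.43, Sst -4.73, Sostdc1 -4.86, Pgc -5.29, Nrn1 -5.36, Cckar -5.47, Gper1 -5.99 and Gif -6.04. Near the bottom were Clps -6.33, Try10 -6.84, Pla2g1b -7.15 and Chia1 -8.18. Genes with very few counts in a group are included, and their values depend on the small count that the fit adds.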

How the results depend on the processing

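The transgenic count of 8180 genes ranged from 7572 to 8031 when 1 library was left out. With changes tested against 1.5-fold it was 3578, against 53 in wild type and 2426 for the difference between genotypes. The wild-type count of 2007 was 626 with library group as a term and 243 within the second library group, and from 1203 to 1972 with 1 library left out (1299 without wild-type 10-week replicate 1, 1203 without 55-week replicate 2). For the difference between genotypes the second library group gave 3636 and leaving out 1 library 5328 to 5787. With library size alone it was 7456, of which 5937 were more positive and 1519 more negative in the transgenic mice. The mitochondrial share of counts differed by 0.209 percentage points, and by -0.290 to 0.654 with 1 library left out (-0.157 without 10-week replicate 1, -0.00873 without 10-week replicate 2, -0.290 without 55-week replicate 1). Same-numbered libraries of the 2 ages correlated at -0.26, -0.13, -0.16, -0.05 and 0.15, so the numbers do not pair them. With a replicate block the counts were 7975, 1899 and 5546, and 4 of 210 called genes lost their call.

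With library size alone, log2 differences changed sign for Ppard (0.19), Cdh1 (0.29), Krt8 (0.064), Kcnq1 (0.42), Slc9a4 (0.38), Tk1 (0.073), Cldn18 (0.19), Krt18 (0.31), Ndufa9 (0.087), mt-Nd1 (0.089), mt-Co1 (0.18), Slc2a1 (0.10) and Cdkn1a (0.082), of which Ppard, Tk1, Ndufa9 and Slc2a1 had been called. The cause was not tested. Genes near 0 and not called also changed sign elsewhere. Kcnq1 was 0.036 and Slc9a4 0.023 with 10-week replicates 1 to 3 only, and Acta2 was -0.16 there. Kcnq1 was 0.00584 without mitochondrially encoded genes and Egfr -0.024 within the second library group. With 1 library left out the range was -0.044 to 0.047 for Kcnq1, -0.081 to 0.037 for Slc9a4, -0.035 to 0.22 for Chrm3 and -0.036 to 0.16 for B2m. The log2 values of genes with a few reads in 1 age depend on those reads.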

Other observations

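Transgenic libraries of 25 weeks (4 mice, all of the first library group) enter no comparison above, and their levels are given as values. Pgc was 23007, 28772, 49967 and 13954 CPM, Atp4a 3944, 4482, 5906 and 2559 CPM and Muc5ac 26867, 21141, 14352 and 16808 CPM in replicates 1 to 4. Cldn2 was 2.39, 3.82, 1.8 and 9.23 CPM, Fcgbp 22.2, 25.6, 9.07 and 74.1 CPM, Cd44 16.1, 16.5, 10.5 and 35.7 CPM and Onecut2 12.6, 13.3, 5.16 and 55.8 CPM. The interferon-induced Isg15 was 275, 227, 191 and 229 CPM and Slfn4 1438, 1705, 608 and 1176 CPM. Reg3g was 2.68, 2.45, 1.57 and 2.9 CPM, Igha 30.3, 18.6, 7.99 and 59.1 CPM and Top2a 78.5, 69.8, 74.9 and 64.6 CPM.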
